A study of Homo sapiens with 18 samples.

Results

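The response of posterior neural ectoderm to a hindbrain medium was measured by comparing cells at day 2 (pNE) with cells of the same origin carried on to day 4 in that medium (pNE_H). All cells came from H1, an established line of wild-type human pluripotent cells, and each group had 2 libraries from distinct biological replicates, so the comparison used 4 of the 18 libraries of the study. A gene was included with at least 1 TPM (transcripts scaled to a common total per library) in at least 2 of these 4 libraries. TPM is a level per transcript length. Of 37550 rows, 14730 were included, of which 627 had no gene symbol. Both groups were at or above 1 TPM in both libraries for 12677 of them. Another 363 genes passed through pNE_H alone and 624 through pNE alone, so they had to differ. The second highest of the 4 values lay between 1 and 1.1 TPM for 204 genes just inside the limit, and between 0.9 and 1 TPM for 216 genes just outside it.

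Every group shared day 1 in a definitive ectoderm medium with 1 µM A8301, which inhibits TGF-beta receptors, 250 nM trametinib, a MEK inhibitor, 1 µM C59, which blocks the secretion of WNT ligands, and 100 nM LDN193189, a BMP receptor inhibitor. On day 2 the pNE medium held A8301 and LDN193189 at these doses, 50 nM TTNPB, an agonist of the retinoic acid receptors, 20 ng/mL FGF2, 1 µM XAV939, which lowers WNT signalling through tankyrase, and 1 µM thiazovivin, added for survival after replating. The plating density was 37500 cells per cm2 for pNE and 150000 cells per cm2 for posterior cells going on to day 4. Medium, day and plating density therefore changed together between pNE and pNE_H and cannot be told apart in that comparison. Cells of the same origin, day and density in a forebrain medium (pNE_T) and a midbrain medium (pNE_M) allow media to be compared at 1 day and density. The forebrain medium at day 3 held XAV939, LDN193189 and FGF2 at the doses given above. The compositions of the midbrain and hindbrain media are not used here. Anterior neural ectoderm (aNE), which had C59 in place of TTNPB, FGF2 and XAV939 on day 2, and its cells in hindbrain medium (aNE_H, plated at 75000 cells per cm2) served to compare the response of the other origin. All groups stem from 1 cell line, and the values are averages over whole cultures.

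The hindbrain forms from the posterior part of the early neural plate, where retinoic acid, FGF and WNT signals set the position of cells along the head-to-tail axis. It is divided into segments called rhombomeres, which are told apart by combinations of HOX genes and by regulators such as EGR2 (KROX20). The boundary to the midbrain lies where the OTX2 domain in front meets the GBX2 domain behind. HOX genes lie in 4 clusters, and the genes at one end of each cluster, with the lowest paralogue numbers, are used in the hindbrain, whereas those with higher numbers are used in the spinal cord and trunk.

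In pNE_H 2081 genes were called changed against pNE, which is 14.1% of those tested, with 762 higher (5.17%) and 1319 lower (8.95%). A call required an adjusted p under 0.05 in a limma fit of log2(TPM + 1) and a log2 fold change of at least 1 in size. Under quantile normalization 2178 genes were called, 1033 higher and 1145 lower, so the excess of lower genes was smaller on that scale. The median log2 fold change over all tested genes was -0.08. Of the genes called higher 215 had passed the filter through pNE_H alone, and of those called lower 372 through pNE alone. A tested gene below 1 TPM in both libraries of pNE or pNE_H passed through the other group alone, which fixed its direction. Counts and medians of a gene list cover its tested members and describe them, and where a median moves by over 1.5 times without the filter that value stands beside it. Both libraries of one group lay above both of the other for 67.3% of the tested genes. HOX genes of the hindbrain range, EGR2, BMP-response genes and genes that bind or import retinoids rose. Forebrain regulators, pluripotency genes, epithelial adhesion genes and several pan-neural regulators fell. Pearson's r across genes, which are not independent replicates, was 0.983 within either group and 0.910 to 0.918 between them. Between 13930 and 14679 genes were at or above 1 TPM in a library. Mitochondrial genes took 2.96% and 3.74% of TPM in pNE and 1.98% and 1.89% in pNE_H, and the part of this difference in the results was not tested. TPM keeps no record of read numbers, so the depth is unknown. Because these are bulk samples, fewer cells of a type and less RNA per cell cannot be told apart.

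**Figure D1:**
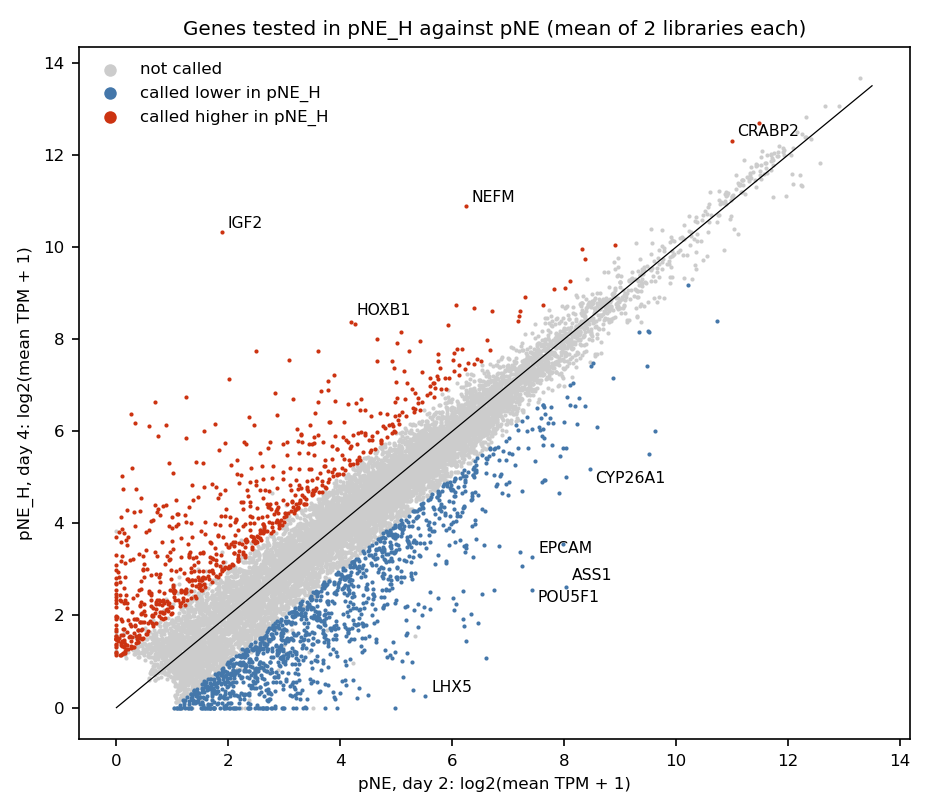
Each point is 1 of the 14730 tested genes, placed by log2 of its mean TPM plus 1 in pNE (x axis) and in pNE_H (y axis), with the line of equal level; red points are the 762 genes called higher and blue points the 1319 called lower. IGF2 and NEFM stand farthest above the line among genes of high level, and LHX5, ASS1 and POU5F1 far below it.

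The labelled identity was checked against marker lists. Neural markers were present in both groups, with SOX2 at 181 and 211 TPM in pNE and 101 and 86.98 TPM in pNE_H, and NES, an intermediate filament of neural progenitors, at 274 and 346 TPM and 293 and 279 TPM. The summed level of the 21 neural markers was 1564 and 1929 TPM in pNE and 1518 and 1428 TPM in pNE_H. SOX1, an early neural plate marker, was at 1.05 and 1.22 TPM and 0.0851 and 0.131 TPM, and HES5, a Notch target of neural progenitors, was listed at 0 in all 4 libraries. The 20 markers of neurons summed to 178 and 213 TPM and 75.5 and 64.4 TPM, nearly all of it TUBB3, and NEUROG1 and NEUROD4 were listed at 0 in these libraries. Progenitor markers were thus present in both groups, and the listed markers of differentiating neurons other than TUBB3 were low.

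Of the 12 anterior HOX genes (paralogue groups 1 to 4), 9 were tested, 4 of them through pNE_H alone, and 8 were called higher. The median log2 fold change was 4.12 over the tested members and 2.85 without the filter, against -0.08 over all tested genes. HOXB1, the HOX gene of the fourth rhombomere, was at 15.2 and 19.5 TPM in pNE and 347 and 312 TPM in pNE_H (log2 fold change 4.18 ± 0.14, adjusted p = 1.18e-10, where ± gives the limma SE throughout). HOXB2, used from the third rhombomere backwards, was at 10.5 and 11.7 TPM and 253 and 172 TPM (log2 fold change 4.12 ± 0.16, adjusted p = 5.25e-10). HOXB3, used from the fifth rhombomere backwards and tested through pNE_H alone, was at 0.981 and 0.709 TPM and 72.1 and 67.1 TPM (log2 fold change 5.26 ± 0.15, called also without the filter). In all of these, both pNE_H libraries lay far above both pNE libraries. HOXA3 changed by 4.44, HOXD1 by 4.4, HOXD3 by 3.77 and HOXA2 by 1.94 on the log2 scale, all called higher. HOXA2, the HOX gene with the most anterior limit in the hindbrain, reached 15.2 and 16.4 TPM, well below HOXB2 on the per-length scale.

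Levels in pNE_H were low in group 4, and none of the 15 listed HOX genes beyond group 5 reached 1 TPM. HOXB4, the last of the 8 called higher, was listed at 0 in both pNE libraries and reached 1.58 and 1.02 TPM. It passed the filter through pNE_H alone and was called also without it. HOXA4, HOXC4 and HOXD4 did not pass the filter, with pNE_H levels of 0.257 and 0.799, 0.466 and 0.2799 and 0.914 and 1.12 TPM. Group 5 held the last tested members: HOXA5 was at 0.248 and 0.276 TPM in the pNE libraries and at 14.7 and 14.2 TPM in the pNE_H libraries (log2 fold change 3.61 ± 0.21), and HOXB5 was at 0.0312 and 0.0488 TPM in the pNE libraries and at 4.596 and 3.49 TPM in the pNE_H libraries (log2 fold change 2.27 ± 0.19). HOXA5 therefore stood above its neighbour HOXA4 in both pNE_H libraries. CDX2, an upstream activator of trunk HOX genes, rose from 0.158 and 0.04901 TPM to 3.34 and 4.39 TPM. HOXA5, HOXB5 and CDX2 were the tested genes among the 21 trunk HOX and CDX genes. All 3 passed the filter through pNE_H alone, so it fixed their direction, and they were called also without it. The other 18 were below 1 TPM in each of the 4 libraries. HOXB9 was at 0.0788 and 0.173 TPM and HOXC9 was listed at 0. Reads of antisense transcripts are not separable from those of the HOX genes here, because whether the counting used the strand is not given in the sources used here.

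**Figure D2:**
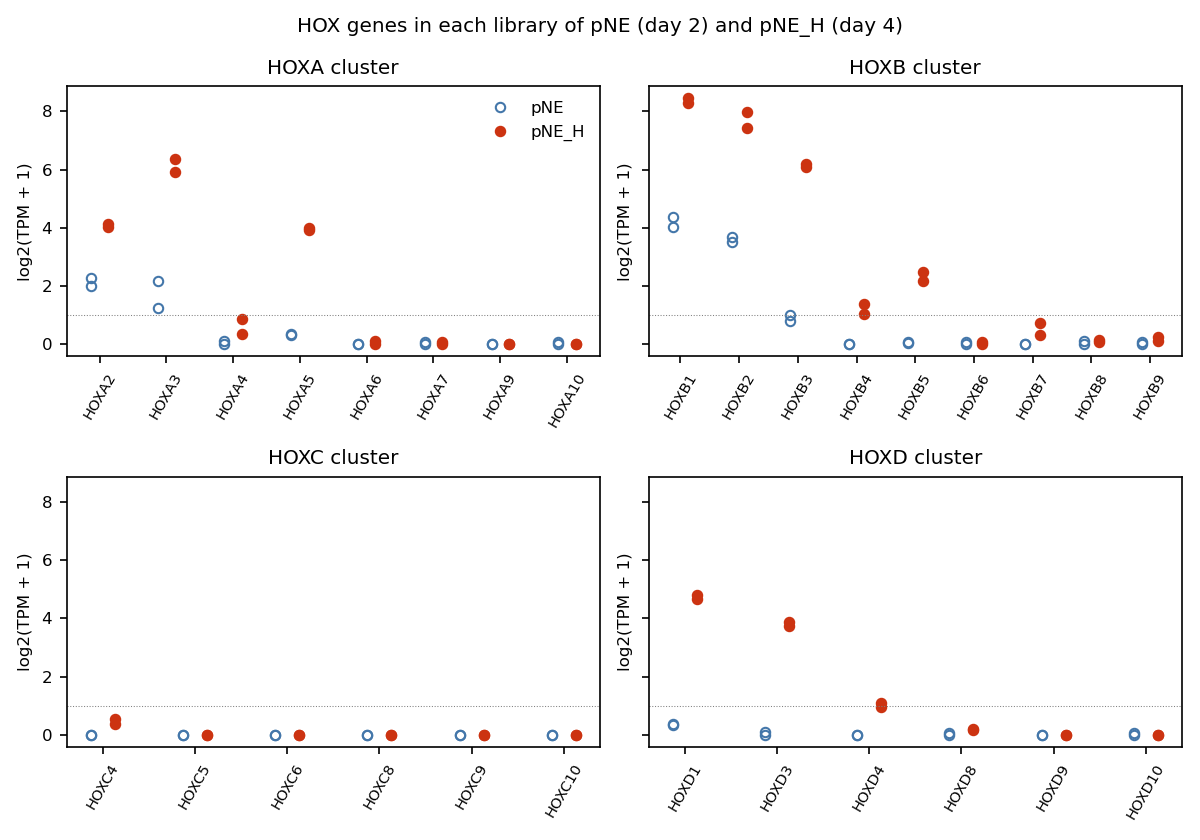
Level of listed HOX genes as log2(TPM + 1), by cluster, in the 2 pNE libraries (open blue circles) and the 2 pNE_H libraries (filled red circles); the dotted line marks 1 TPM. Genes of groups 1 to 3 and HOXA5 lie high in pNE_H, and genes beyond group 5 lie at or near 0 in both.

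Of the 15 listed HOX genes beyond group 5, 4 were at 10 TPM or more in both libraries of midbrain medium and 3 between 1 and 10 TPM, while all 15 were below 1 TPM in both of hindbrain medium. HOXB9 was at 153 and 130.4 TPM in pNE_M, HOXB6 at 138 and 121 TPM and CDX2 at 247 and 252 TPM, against 0.0788 and 0.173, 0.0433 and 0 and 3.34 and 4.39 TPM in pNE_H. CDX2 was called lower in pNE_H than in pNE_M (log2 fold change -5.69 ± 0.25, adjusted p = 3.84e-09), while HOXB9 and HOXB6 did not pass the filter on the pNE and pNE_H libraries and were not tested. Over all tested genes 6.06% were called in either direction between pNE_H and pNE_M, and 5.43% between pNE_H and pNE_T. HOXB1 stood at 340.0 and 346 TPM in pNE_M (-0.06 ± 0.14, not called). Against the forebrain medium, HOXB1 was higher in pNE_H (126 and 147 TPM in pNE_T, log2 fold change 1.27 ± 0.14, adjusted p = 1.76e-05), as was HOXA5 by 1.13 ± 0.21. The 8 other tested anterior HOX genes were not called between pNE_H and pNE_T, and HOXA3, for example, stood at 74.6 and 69.7 TPM in pNE_T.

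HOX proteins bind DNA with partners of the MEIS, PBX and PKNOX families. Of 9 such genes 3 were called higher and none lower, with a median of 0.46. MEIS1 rose from 2.78 and 3.26 TPM to 128 and 150.5 TPM (log2 fold change 5.13 ± 0.22, adjusted p = 1.40e-09), MEIS3 from 48.3 and 56.4 TPM to 193 and 175 TPM, and MEIS2 from 94.7 and 101 TPM to 239 and 266 TPM. All 3 MEIS genes thus rose, while PBX2 (0.21) and PBX3 (0.66) had log2 fold changes below the size required for a call. MEIS1 stood at 76.7 and 76.2 TPM in pNE_T and 27.3 and 40.6 TPM in pNE_M. The list as a whole was not highest in hindbrain medium. Against pNE, 5 of the 9 were called higher and none lower in pNE_T (median 1.07), and 2 higher and none lower in pNE_M (median -0.085). Directly between media, none was called higher and 1 lower in pNE_H than in pNE_T, and 4 higher and 1 lower than in pNE_M.

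Genes of hindbrain segmentation rose in part. EGR2, the zinc finger factor of the third and the fifth rhombomere, was at 0.244 and 0.534 TPM in pNE, 1.77 and 3.14 TPM in pNE_T, 1.45 and 2.79 TPM in pNE_M and 7.47 and 6.54 TPM in pNE_H. Its level in pNE_H was low in absolute terms and called higher than in pNE (2.53 ± 0.25), pNE_T (1.24 ± 0.25) and pNE_M (1.39 ± 0.25). EGR2 passed the filter through pNE_H alone, which fixed the direction of its change from pNE, and was called also without the filter. Of 14 tested genes of the 16 listed 8 were called higher and 1 lower, with a median of 1.13. Of these, the Iroquois gene IRX3 rose by 1.91 and IRX5 by 1.29. The boundary-forming receptor EPHA4 rose by 1.29 and the ligand EFNB2 by 1.07, and ZNF703 rose by 1.18. The gene called lower was GBX2, which marks the anterior hindbrain behind the midbrain boundary. GBX2 was at 172 and 216 TPM in the pNE libraries and at 33.1 and 24.8 TPM in the pNE_H libraries (log2 fold change -2.71 ± 0.20, adjusted p = 1.32e-07). The rise of the list was not particular to hindbrain medium. In pNE_T against pNE, 8 of the 14 genes were called higher and 2 lower (median 1.05), and in pNE_M 3 higher and 2 lower (median 0.43). Directly between media, 2 were called higher and 1 lower in pNE_H than in pNE_T, and 7 higher and 1 lower than in pNE_M.

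Regulators in front of the hindbrain were lower. Of 22 listed forebrain and midbrain genes 12 were tested, 5 of them through pNE alone and 2 through pNE_H alone, and 8 were called lower and 3 higher. Their median was -2.30, and -0.14 without the filter. OTX2, which specifies forebrain and midbrain, was at 28.3 and 26.6 TPM in pNE and 1.37 and 0.908 TPM in pNE_H (log2 fold change -3.74 ± 0.14, adjusted p = 4.26e-10). LHX5, a LIM factor of the forebrain, was at 38.7 and 51.1 TPM and 0.148 and 0.227 TPM (log2 fold change -5.26 ± 0.22, adjusted p = 1.03e-09). HESX1, a repressor needed for the anterior forebrain, was at 40.5 and 30.9 TPM and 1.81 and 2.33 TPM (log2 fold change -3.57 ± 0.24, adjusted p = 7.29e-08). For each, both pNE_H libraries lay below both pNE libraries. SIX3 changed by -2.39, LHX2 by -2.36, FEZF1 by -2.6, FEZF2 by -2.23 and SIX6 by -1.55. SIX3 kept 10.8 and 10.4 TPM in pNE_H and stood at 38.00 and 39.8 TPM in forebrain medium. The fall of the list was not particular to hindbrain medium. Against pNE, 5 of the 12 genes were called lower and 1 higher in pNE_T (median -0.70). In pNE_M 9 were called lower and 2 higher (median -2.02). Directly between media, 2 were called higher and 3 lower in pNE_H than in pNE_T, and 2 higher and 2 lower than in pNE_M. The 3 called higher in pNE_H than in pNE were PAX8, PAX2 and LMX1B, which act at the midbrain-hindbrain boundary and, for PAX2 and PAX8, also in the otic placode. PAX8 rose from 0.09902 and 0.0938 TPM to 6.25 and 3.84 TPM and was at 0 and 0.124 TPM in pNE_T and 0 and 0.102 TPM in pNE_M. PAX2 rose from 0.369 and 0.276 TPM to 5.71 and 3.98 TPM and was higher still in pNE_M, at 33.02 and 33.1 TPM. EN1, EN2 and WNT1 of the boundary itself were below 1 TPM in all 4 libraries.

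**Figure D3:**
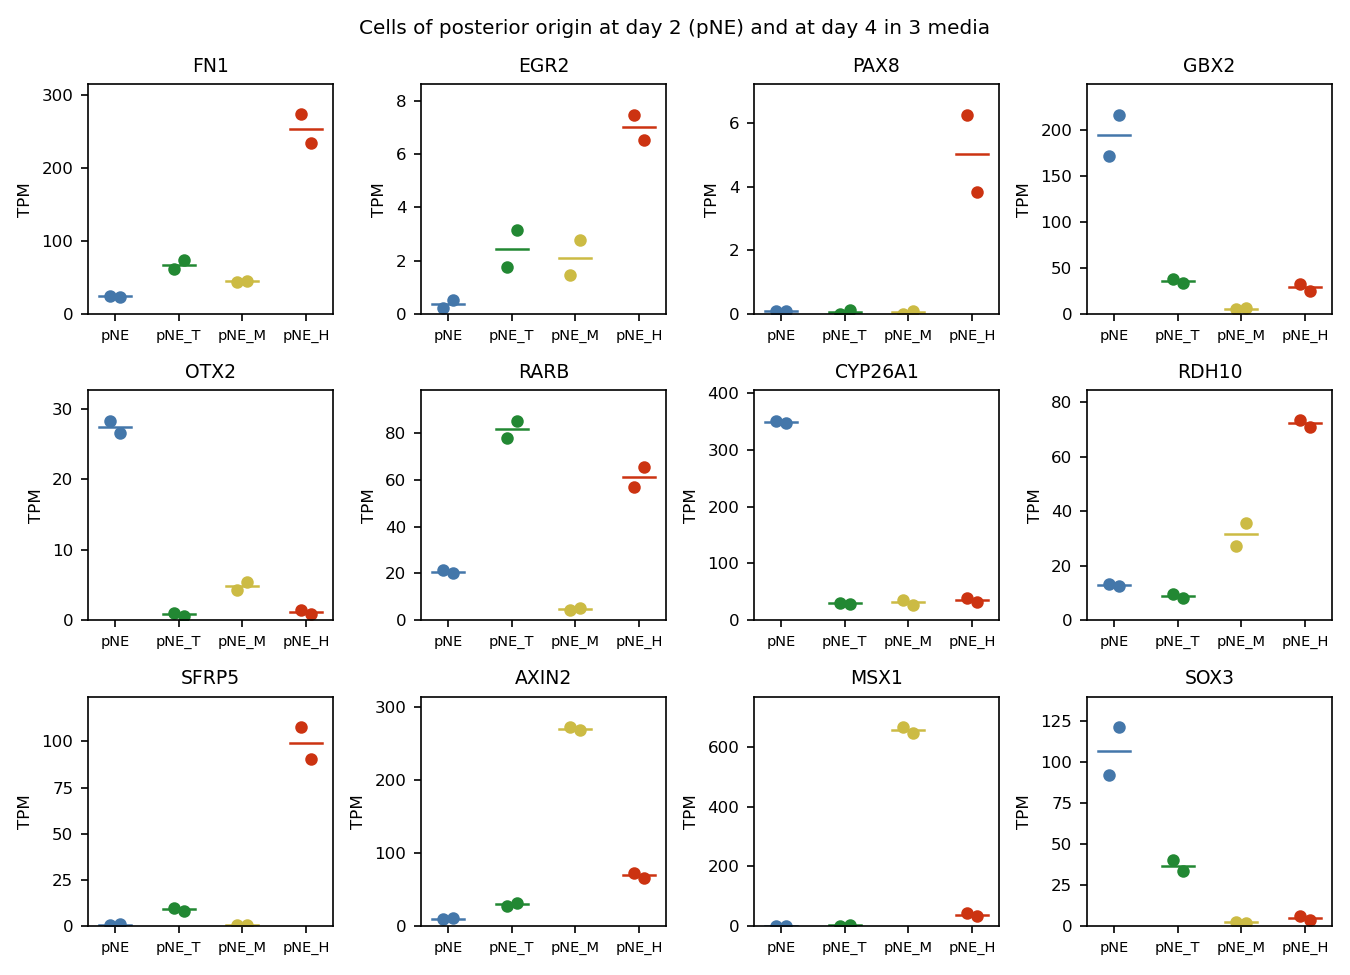
TPM of 12 genes in each library of posterior origin at day 2 (pNE) and at day 4 in forebrain (pNE_T), midbrain (pNE_M) and hindbrain medium (pNE_H); points are libraries, bars are the means of 2, and each panel starts at 0 with its own scale. FN1, EGR2, PAX8, RDH10 and SFRP5 are highest in pNE_H, AXIN2 and MSX1 in pNE_M, and OTX2, CYP26A1 and GBX2 in pNE.

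Retinoid genes fell into members that rose and members that fell. Retinoic acid acts through receptors (RARA, RARB and RARG with RXR partners), is made by RDH10 and the ALDH1A enzymes, is carried by CRABP proteins and is broken down by CYP26 enzymes. The promoters of 2 genes are shown, RARB and CYP26A1, both known as direct targets of the receptors, which changed in opposite directions here. They were the only listed retinoid genes with a match to the repeat described next, so the match chose them. The 100 bases before a RefSeq start site of each gene are printed on the plus strand of GRCh38.p14, for RARB at chr3:25428163-25428262 and for CYP26A1 at chr10:93073793-93073892. Capitals mark a direct repeat of receptor-type units (AGGTCA, with AGTTCA as well as GGGTCA and also GGTTCA allowed) spaced by 5 bases.
RARB: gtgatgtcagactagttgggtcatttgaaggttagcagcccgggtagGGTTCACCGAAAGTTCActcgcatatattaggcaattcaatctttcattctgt
CYP26A1: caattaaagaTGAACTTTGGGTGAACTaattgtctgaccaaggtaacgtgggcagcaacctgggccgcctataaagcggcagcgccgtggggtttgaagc
The repeat lay 53 to 37 bases before the RARB start and, in the reverse orientation, 90 to 74 bases before the CYP26A1 start. Searched on both strands over 250 bases before to 50 after each start, it was found in 31 of 35116 RefSeq promoters (0.0883%), and in 2 of the 35 promoters of the 18 listed retinoid genes with an entry, those of RARB and CYP26A1. RARB had 4 promoter entries and CYP26A1 had 2, and the entries not shown held no match. None of the 14 promoters of the 8 anterior HOX genes with an entry held the repeat. Spaced by 2 bases, it was found in 14 of all promoters (0.0399%) and in none of the 35 retinoid or 14 HOX promoters. The TCF/LEF motif CTTTGAT was in 919 of all promoters (2.62%), in 2 of the 35 (NR2F1), none of the 14 and 1 of 11 of listed WNT targets (SP5). A match describes the letters and is not evidence of binding.

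CYP26A1 was at 352 and 348 TPM in the pNE libraries and at 39.5 and 31.1 TPM in the pNE_H libraries (log2 fold change -3.28 ± 0.17, adjusted p = 7.69e-09). In the other media at day 4 it was at 29.8 and 28.7 TPM in pNE_T and 35.3 and 27.1 TPM in pNE_M, and neither was called different from pNE_H. RARB was at 21.4 and 20.04 TPM in the pNE libraries and at 56.9 and 65.5 TPM in the pNE_H libraries (log2 fold change 1.52 ± 0.15, adjusted p = 3.69e-06). RARB was thus high in pNE_H where CYP26A1 was low, and the promoter entry shown above for each holds the repeat. In pNE_M RARB stood at 4.48 and 5.16 TPM, below pNE_H by 3.42 on the log2 scale, and in pNE_T it stood at 77.8 and 85.2 TPM. RDH10, the first oxidizing enzyme of retinoic acid synthesis, was at 13.1 and 12.5 TPM in pNE and 73.3 and 71.01 TPM in pNE_H (log2 fold change 2.40 ± 0.23, adjusted p = 2.18e-06). It was higher in pNE_H than in pNE_T (2.90 ± 0.23) and pNE_M (1.18 ± 0.23). Of 21 listed retinoid genes 17 were tested, and 10 were called higher and 4 lower, with a median of 1.27 (0.82 without the filter). Among the 17, 2 passed the filter through pNE_H alone, including NR2F1, and 2 through pNE alone, so their direction was fixed. The binding proteins CRABP2 (to 5022 and 5105 TPM) and CRABP1 rose by 1.31 and 1.27, and the vitamin A importer STRA6 by 1.91. RARA rose by 1.05, whereas RARG fell, with -1.54. The orphan receptors NR2F1 (from 0.0278 and 0.0905 TPM to 18.1 and 15.04 TPM) and NR2F2 (from 1.35 and 2.58 TPM to 27.7 and 25.9 TPM) rose as well. ALDH1A2 was called higher at 2.86 and 1.703 TPM, and ALDH1A3, at 3.62 and 3.32 TPM in pNE, and CYP26C1, at 1.71 and 1.45 TPM, were called lower. DHRS3, a reductase that limits retinoic acid, had a log2 fold change of 0.82 ± 0.12 and was not called.

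FGF signalling genes were rearranged. Of 9 tested ligands and receptors of the 13 listed 2 were called higher and 4 lower, with a median of -0.41. FGFR3 was at 128 and 166 TPM in the pNE libraries and at 7.89 and 10.8 TPM in the pNE_H libraries (log2 fold change -3.84 ± 0.18, adjusted p = 2.00e-09), and FGFR2 changed by -1.79. FGFR4 rose from 29.3 and 32.1 TPM to 82.9 and 76.2 TPM and the ligand FGF9 from 0.245 and 2.51 TPM to 16.7 and 13.7 TPM. FGFR1 was the most abundant receptor in both groups, at 589.7 and 692 TPM and 513 and 452 TPM, and was not called. FGF8, the ligand of the midbrain-hindbrain boundary, was at 0.0895 and 1.41 TPM in pNE and 0 and 0.2395 TPM in pNE_H and was not tested. Feedback genes that follow ERK activity divided: of 16, 5 were called higher and 3 lower, with a median of -0.20. The inhibitors SPRY2 (1.54), IL17RD (1.53), SPRY1 (1.28) and DUSP4 (1.03) and the ETS factor ETV5 (1.5) rose. FOSL1 (-2.55), DUSP5 (-1.53) and ETV1 (-1.33) fell. DUSP6, the main ERK phosphatase of this feedback, was at 274 and 238 TPM and 286 and 298 TPM and was not called.

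WNT target genes rose in part. Of 10 tested genes of the 14 listed 4 were called higher and 1 lower, with a median of 0.81. AXIN2, a negative feedback gene of the pathway, was at 9.45 and 10.6 TPM in pNE and 73.3 and 66.2 TPM in pNE_H (log2 fold change 2.68 ± 0.10, adjusted p = 2.62e-10). LEF1, a DNA-binding effector, was at 3.34 and 2.37 TPM and 26.7 and 24.03 TPM (log2 fold change 2.78 ± 0.21, adjusted p = 1.91e-07). SP5, a direct target, went the other way, from 2.47 and 8.76 TPM to 0.171 and 0.0905 TPM (log2 fold change -2.37 ± 0.39, adjusted p = 3.04e-04). RNF43, which removes WNT receptors, and TNFRSF19 were also called higher. The same genes differed between media at day 4: AXIN2 stood at 28.00 and 31.1 TPM in pNE_T and 272 and 268 TPM in pNE_M, and LEF1 at 3.32 and 4.95 TPM and 159 and 164 TPM. Of the 10 genes 5 were called higher in pNE_H than in pNE_T and 8 lower than in pNE_M, and AXIN2, LEF1, RNF43 and APCDD1 were both. SP5 was the extreme, at 756 and 625 TPM in pNE_M and 0.0895 and 0.0967 TPM in pNE_T.

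Secreted WNT antagonists changed in both directions. SFRP5 was at 0.369 and 0.865 TPM in the pNE libraries and at 108 and 90.4 TPM in the pNE_H libraries (log2 fold change 5.96 ± 0.20, adjusted p = 1.27e-10), and it was higher in pNE_H than in pNE_T (3.32 ± 0.20) and pNE_M (6.05 ± 0.20). SFRP1 fell from 459 and 479.7 TPM to 135 and 150.1 TPM and SFRP2 from 178 and 216 TPM to 53.3 and 48.95 TPM. One member of this secreted family thus appeared while its most abundant members declined. FRZB (-2.22), the ligand WNT4 (-3.21) and the receptor FZD5 (-2.38) were called lower as well. The ligands WNT5A (2.64), WNT5B (2.27) and WNT3 (1.87) were called higher, WNT5A from 7.85 and 9.88 TPM to 59.4 and 61.2 TPM. Of 14 tested ligands, receptors and antagonists of the 20 listed 4 rose and 5 fell, with a median of -0.72 (-0.33 without the filter).

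BMP-response genes rose together with BMP ligands and antagonists. Of 18 tested BMP and TGF-beta genes of the 22 listed 11 were called higher and 3 lower, with a median of 1.83 (1.07 without the filter). Of the 18, 3 passed the filter through pNE_H alone, NOG and CER1 among them, and 1, TDGF1, through pNE alone. The filter fixed their direction, and NOG, CER1 and TDGF1 were called also without it. ID1, a direct SMAD target that holds back differentiation, was at 15.02 and 21.3 TPM in pNE and 368 and 274 TPM in pNE_H (log2 fold change 4.08 ± 0.18, adjusted p = 1.49e-09). ID2 was at 7.62 and 10.4 TPM and 49.3 and 57.05 TPM (log2 fold change 2.45 ± 0.17, adjusted p = 9.49e-08), and ID3 at 469.7 and 488 TPM and 1141 and 973 TPM (log2 fold change 1.14 ± 0.09, adjusted p = 5.57e-07). The inhibitory genes SMAD6 (1.61) and BAMBI (2.21) and the ligands BMP2 (2.63) and BMP5 (2.65) also rose. Among secreted antagonists, NOG rose from 0.151 and 0 TPM to 37.5 and 26.2 TPM, GREM1 from 8.07 and 7.82 TPM to 96.7 and 109 TPM and CER1 from 0.516 and 0.481 TPM to 11.8 and 15.2 TPM. BMPER rose by 2.05, while the antagonist FST (-1.31) and the ligand BMP4 (-1.84) fell. TDGF1, a NODAL co-receptor, was at 32.9 and 27.8 TPM in pNE and listed at 0 in both pNE_H libraries, where sequence shared with its pseudogene copies makes its level uncertain. ID1 was also high in the other media, at 181 and 202 TPM in pNE_T, whose medium held LDN193189 at day 3, and at 162 and 167 TPM in pNE_M. ID3 and NOG differed between hindbrain and forebrain medium, by 2.23 ± 0.09 and 2.37 ± 0.19, and both were called higher in pNE_H.

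Dorsoventral patterning genes differed between the media. Of 16 listed genes 6 were tested, 3 of them through pNE_H alone and 1 through pNE alone, and 4 were called higher and 1 lower. Their median was 1.76, with 0.075 without the filter, 1.03 with the filter over 18 libraries and 3.12 with the filter at 5 TPM. MSX1, a dorsal BMP target, was at 0.996 and 0.855 TPM in pNE, 1.72 and 2.55 TPM in pNE_T, 42.7 and 34.2 TPM in pNE_H and 666 and 646 TPM in pNE_M. It was called higher in pNE_H than in pNE (4.35 ± 0.20) and pNE_T (3.66 ± 0.20) and lower than in pNE_M (-4.07 ± 0.20). MSX2 (3.12) and PAX3 (1.46), both of the dorsal neural tube, and NKX6-1 (2.06), of the ventral neural tube, were the others called higher, with NKX6-1 at 4.63 and 2.98 TPM. OLIG3, a dorsal progenitor factor, fell from 7.09 and 9.23 TPM to 0.442 and 0.209 TPM. Floor plate and motor neuron progenitor genes were low, with FOXA2 at 4.996 and 4.29 TPM, SHH at 0.775 and 2.47 TPM, OLIG2 at 0.601 and 0 TPM and NKX2-2 listed at 0 in pNE_H. Hedgehog pathway genes numbered 9 tested of 11 listed with 2 called higher and none lower, a median of 0.72. The co-receptor BOC rose by 2.6 and the antagonist HHIP by 1.3, while GLI1, the main readout of the pathway, had a log2 fold change of -1.0 (SE 0.46) and was not called.

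Several pan-neural regulators of the SOX and ZIC families declined. Of 19 tested genes of the 21 listed 6 were called lower and 2 higher, with a median of -0.33 (-0.17 without the filter). SOX3 was at 91.9 and 121 TPM in the pNE libraries and at 5.87 and 3.85 TPM in the pNE_H libraries (log2 fold change -4.21 ± 0.19, adjusted p = 1.92e-09). SOX21, which opposes SOX2 in progenitors, was at 56.8 and 72.6 TPM and 3.62 and 3.02 TPM (log2 fold change -3.92 ± 0.20, adjusted p = 4.57e-09). SOX2, from the levels given above, had a log2 fold change of -1.05 ± 0.11, close to the limit of a call. Its value was -0.94 without pNE replicate 2, -0.95 without pNE_H replicate 2, -0.96 under median-ratio scaling and -0.98 under quantile normalization, each of which ends the call. Both pNE_H libraries lay below both pNE libraries for SOX3, SOX21 and SOX2. ZIC2 (-1.78), ZIC5 (-1.73) and POU3F1 (-2.68) fell too. POU3F2 rose from 0.883 and 0.456 TPM to 18.96 and 18.9 TPM and PAX6, a regulator of dorsal forebrain and hindbrain progenitors, from 1.34 and 2.54 TPM to 5.39 and 5.39 TPM. POU3F2 passed the filter through pNE_H alone, so it had to rise, and it was called also without the filter. Structural and RNA-binding genes of progenitors had small log2 fold changes, with NES at -0.11, CDH2 at -0.17, MSI1 at -0.50 and SOX11 at 0.05, none of them called. Against forebrain medium, 10 of the 19 genes were called lower in pNE_H and 2 higher, where 3.49% and 1.94% of all tested genes were. SOX2 stood at 239 and 234 TPM in pNE_T and SOX3 at 40.2 and 33.4 TPM, both above pNE_H.

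Among Notch genes 3 of 13 tested were called lower and 1 higher, with a median of -0.31. NRARP, a direct Notch target, fell from 11.6 and 13.97 TPM to 0.616 and 1.05 TPM, the receptor NOTCH1 changed by -1.59 and the modulator LFNG by -1.18. HEY1 was called higher at 3.04 and 2.14 TPM. Of 4 tested neuronal genes of the 20 listed 1 was called, with a median of -0.47 (-0.035 without the filter): TUBB3, a tubulin of neurons, fell from 172 and 206 TPM to 70.2 and 59.2 TPM. In contrast NEFM, a neurofilament subunit that was not on that list, rose from 63.7 and 85.3 TPM to 1952 and 1819 TPM (log2 fold change 4.66 ± 0.12, adjusted p = 1.64e-11), and stood at 521 and 580.2 TPM in pNE_T and 379 and 397 TPM in pNE_M. A neurofilament gene thus rose to among the more abundant transcripts while the proneural genes NEUROG1 and NEUROD4 were listed at 0 in pNE_H.

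Pluripotency genes still present at day 2 were lower at day 4. Of 16 listed genes 11 were tested, 6 were called lower and none higher, with a median of -1.53 (-0.69 without the filter). POU5F1 (OCT4) was at 171 and 169 TPM in pNE and 4.58 and 5.15 TPM in pNE_H (log2 fold change -4.87 ± 0.22, adjusted p = 1.94e-09), and its pseudogenes make the level uncertain. ZFP42 was at 77.8 and 68.9 TPM and 2.198 and 2.63 TPM (log2 fold change -4.44 ± 0.10, adjusted p = 4.98e-12). DNMT3B, a DNA methyltransferase of the early epiblast, was at 358 and 413 TPM and 69.9 and 63.6 TPM (log2 fold change -2.51 ± 0.08, adjusted p = 1.27e-10). All 3 were well separated between groups. PRDM14, L1TD1 and DPPA4 were the others called lower, with log2 fold changes of -3.02, -2.79 and -1.53. LIN28A, an RNA-binding protein of early progenitors, stayed high at 1032 and 1074 TPM and 896 and 1009 TPM, and LIN28B and SALL4 were not called either. The summed level of the list was 2123 and 2215 TPM and 1229 and 1363 TPM, with LIN28A the largest part, and NANOG was below 1 TPM in all 4 libraries. In the other media at day 4, 6 of the 11 were called lower than in pNE for pNE_T (median -1.65) and 7 for pNE_M (median -1.68). None was called higher in either.

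Epithelial adhesion genes declined widely. Of 17 tested cadherin and junction genes of the 18 listed 10 were called lower and 3 higher, with a median of -1.66. CDH1 (E-cadherin) was at 88.6 and 86.3 TPM in pNE and 1.83 and 3.28 TPM in pNE_H (log2 fold change -4.67 ± 0.23, adjusted p = 3.49e-09). EPCAM, an epithelial adhesion molecule, was at 180.3 and 163 TPM and 8.58 and 8.59 TPM (log2 fold change -4.17 ± 0.09, adjusted p = 4.98e-12). The tight-junction claudin CLDN6 was at 741 and 841 TPM and 55.9 and 69.8 TPM (log2 fold change -3.64 ± 0.09, adjusted p = 1.13e-11). Each of these lay several log2 units lower in both pNE_H libraries. CLDN7 (-4.26), CLDN4 (-3.85) and CLDN3 (-3.63), the epithelial splicing regulators ESRP1 (-3.59) and ESRP2 (-3.18), and the transcription factors GRHL2 (-2.72) and GRHL3 (-2.65) were called lower too. N-cadherin (CDH2) was not called, whereas CDH11, a cadherin of mesenchyme and neural tube, rose from 9.57 and 13.6 TPM to 118 and 114 TPM, and CDH6 and CDH12 by 1.13 and 2.8. Of the 17 genes, 1 was called higher and 3 lower in pNE_H than in pNE_T, and 1 higher and 1 lower than in pNE_M, with CDH1 at 2.49 and 3.16 TPM in pNE_T and 1.198 and 0.759 TPM in pNE_M.

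Matrix genes changed alongside. Of 27 tested collagens, laminins and integrins of the 29 listed 6 were called higher and 3 lower, with a median of -0.17. FN1 was at 24.9 and 23.4 TPM in the pNE libraries and at 273 and 234 TPM in the pNE_H libraries (log2 fold change 3.34 ± 0.14, adjusted p = 8.56e-10), and fibronectin was called higher in pNE_H than in pNE_T (1.90 ± 0.14) and pNE_M (2.48 ± 0.14). The 2 chains of type I collagen went apart: COL1A2 rose from 75.2 and 90.1 TPM to 409 and 405 TPM, and COL1A1 fell from 131 and 171 TPM to 27.6 and 22.5 TPM. COL2A1 rose by 2.69 and ITGB1 by 1.3. ITGA6, the laminin receptor subunit of epithelia and stem cells, fell from 90.6 and 91.6 TPM to 4.41 and 4.68 TPM (log2 fold change -4.06 ± 0.16, adjusted p = 4.81e-10). Laminin chains were not called, with LAMC1 at 0.53 and LAMA5 at -0.75. Of 26 tested axon guidance genes of the 30 listed 7 were called higher and 1 lower, with a median of 0.30. The secreted guidance cues SEMA3C (4.43) and SLIT2 (2.39) led them, with SEMA3C going from 1.84 and 2.08 TPM to 55.02 and 71.3 TPM. The receptors PLXNA2 (2.34) and ROBO2 (1.7) and the ephrin EFNB1 (1.38) rose, and NTN1 (netrin-1) fell, with -1.09. Of the 26 axon guidance genes 7 were called higher and 1 lower in pNE_T than in pNE, and 9 higher and 3 lower in pNE_M.

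**Figure D4:**
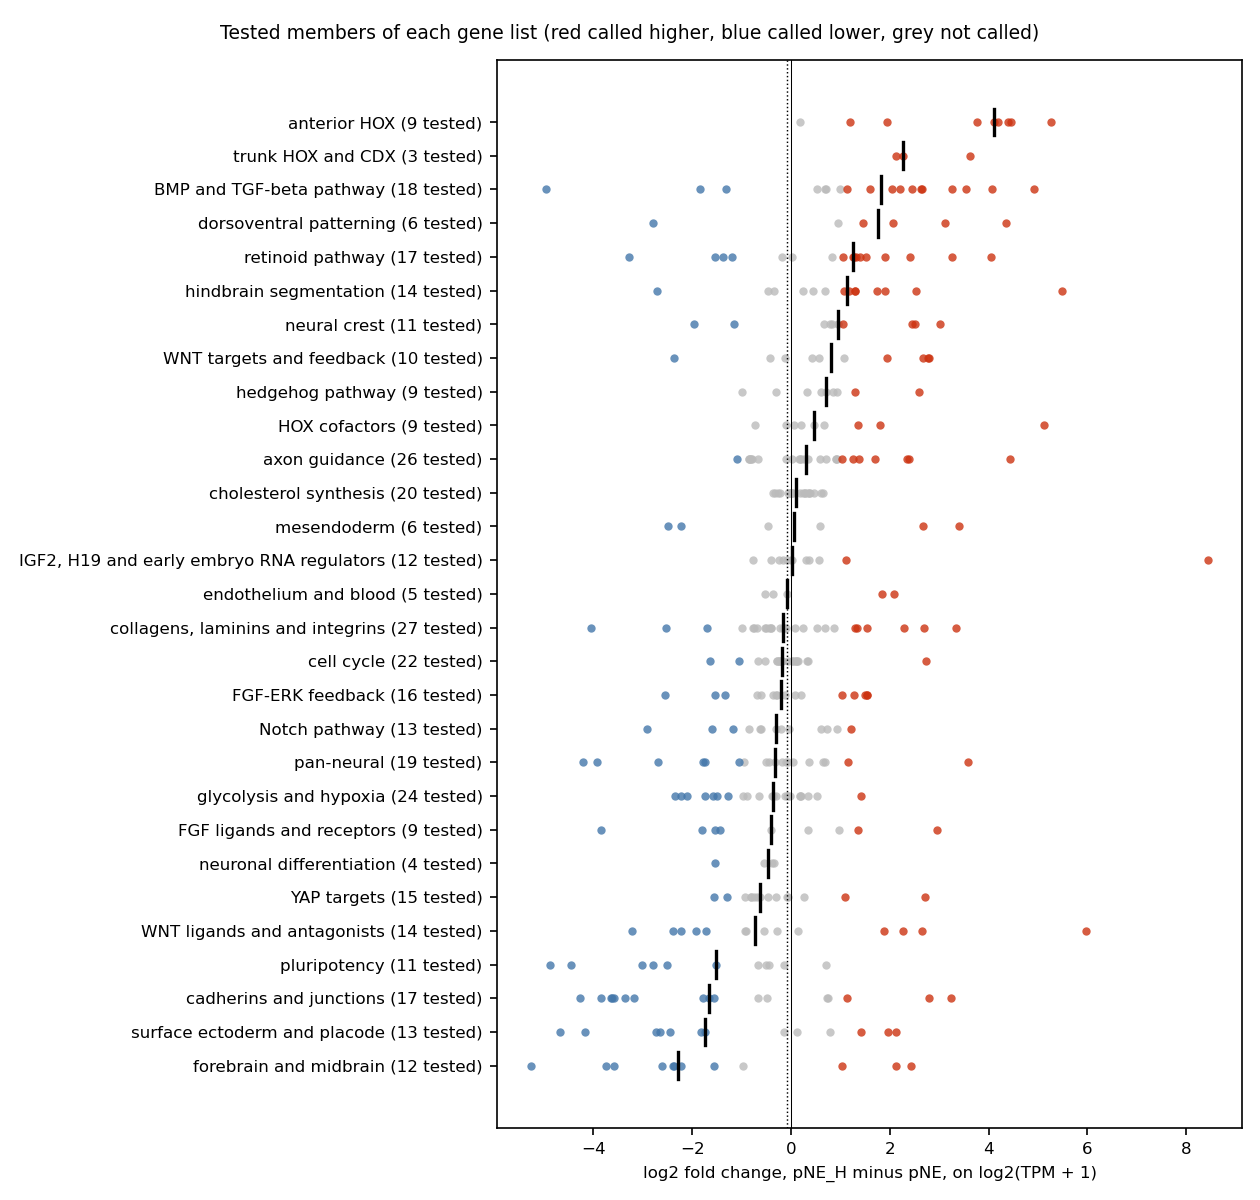
Log2 fold change of pNE_H minus pNE for each tested member of the 29 gene lists, ordered by the list median (black bar); red points are called higher, blue points lower and grey points neither, and the dotted line is the median of all tested genes at -0.08. Anterior HOX genes lie farthest to the right, and forebrain and midbrain, surface ectoderm, junction and pluripotency genes farthest to the left.

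Markers of other cell types were called in both directions. Of 11 tested neural crest genes 4 were called higher and 2 lower, with a median of 0.95. SOX10, a crest and otic factor, was at 0.708 and 1.14 TPM in pNE and 16.2 and 12.7 TPM in pNE_H (log2 fold change 3.01 ± 0.21, adjusted p = 8.83e-08), SNAI2 at 2.08 and 1.92 TPM and 14.04 and 16.8 TPM, and EDNRB at 4.54 and 3.96 TPM and 28.4 and 29.5 TPM. The crest specifiers FOXD3 (0.106 and 0 TPM) and TFAP2B (0.0794 and 0.155 TPM) were near 0 in pNE_H, and TFAP2A reached 1.46 and 1.02 TPM. The 13 crest markers summed to 164 and 204 TPM and 201 and 194 TPM, of which NGFR made the largest single part. Of 13 tested surface ectoderm and placode genes of the 17 listed 7 were called lower and 3 higher, with a median of -1.75 (-0.14 without the filter) and sums of 1754 and 1976 TPM and 1842 and 1619 TPM, mostly KRT8 and KRT18. DLX5 (-2.45), DLX3 (-1.75) and KRT19 (-1.82) fell, and the epidermal genes KRT14 and TP63 were at or near 0. The 3 that rose were EYA1 (from 3.504 and 2.62 TPM to 15.3 and 18.1 TPM), GATA3 (from 2.13 and 4.07 TPM to 16.6 and 12.6 TPM) and GATA2 (from 0.251 and 0.421 TPM to 2.98 and 2.22 TPM), which serve the otic placode and, for the GATA factors, hindbrain neurons among other tissues. The part of these cell types in the changes of SOX10, PAX2, PAX8 and EYA1 was not tested.

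Mesendoderm markers summed to 36.5 and 35.2 TPM and 36.7 and 35.4 TPM. Of 6 tested of the 16 listed, 2 were called higher (MEOX1, from 0.5297 and 0.614 TPM to 14.03 and 17.5 TPM, and GATA4, from 0.125 and 0.103 TPM to 6.59 and 5.63 TPM) and 2 lower (KDR and GSC), with a median of 0.06. GSC was at 4.84 and 4.33 TPM in pNE and listed at 0 in pNE_H. MEOX1 and GATA4 passed the filter through pNE_H alone and GSC through pNE alone, so the filter fixed their direction. MEOX1, GATA4 and GSC were called also without it. TBXT and MSGN1 were listed at 0 in both pNE_H libraries, and SOX17 was at 1.41 and 0.928 TPM. Of 5 tested endothelial and blood genes of the 10 listed CDH5 (from 0.719 and 0.657 TPM to 5.86 and 6.495 TPM) and CD34 (from 0.244 and 0.473 TPM to 3.61 and 4.17 TPM) were called higher and none lower, with a median of -0.07 (-0.14 without the filter), sums of 16.9 and 15.7 TPM and 20.9 and 23.3 TPM, and PECAM1 below 1 TPM. CDH5 and CD34 passed the filter through pNE_H alone, which fixed their direction, and were called also without it.

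Lists of cycling, metabolism and growth control genes are set beside all tested genes, of which 5.17% were called higher and 8.95% lower. Of 22 tested cell cycle genes 1 was called higher and 2 lower, near the shares of all tested genes, with a median of -0.17. The proliferation marker MKI67 was at 35.9 and 39.3 TPM and 41.3 and 40.6 TPM, and neither it nor TOP2A was called. CDKN1C, a cyclin-dependent kinase inhibitor, rose from 7.94 and 6.59 TPM to 57.4 and 49.99 TPM (log2 fold change 2.73 ± 0.14, adjusted p = 5.08e-09), and CDKN2A and MCM5 fell. None of 20 cholesterol synthesis genes was called in the limma fit, with a median of 0.11, although 13 had an unadjusted p under 0.05 at log2 fold changes of -0.36 to 0.64. Of 24 glycolysis and hypoxia genes 7 were called lower and 1 higher, with a median of -0.36. ADM, a hypoxia-inducible peptide hormone, fell from 246 and 259 TPM to 48.04 and 49.7 TPM, and the oxygen sensor EGLN3 and the enzymes ENO2, PFKP and HK1 fell, with log2 fold changes of -2.23, -2.1, -1.74 and -1.5. The core enzymes GAPDH, ENO1 and PGK1 were not called. In the other media at day 4, 8 of the 24 were called lower than in pNE for pNE_T and 7 for pNE_M, and none higher. Of 15 genes of the YAP pathway 2 were called higher and 2 lower, with a median of -0.63. Against forebrain medium 8 of these were called lower in pNE_H and 1 higher, where 3.49% and 1.94% of all tested genes were. CCN2, a target often used as a readout of the YAP pathway, stood at 116 and 134 TPM in pNE, 64.99 and 84.8 TPM in pNE_H and 411 and 409.8 TPM in pNE_T.

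The largest rise of all was that of IGF2, a growth factor of the embryo. IGF2 was at 2.18 and 3.21 TPM in the pNE libraries and at 1381 and 1175 TPM in the pNE_H libraries (log2 fold change 8.44 ± 0.16, adjusted p = 1.97e-12). It stood in pNE_T at 900.0 and 972 TPM, and in pNE_M, at 1064 and 1156 TPM, and neither difference from pNE_H was called. IGF2 shares exons with the readthrough gene INS-IGF2, so the division of reads between these genes is uncertain. Of the 12 tested genes of its list, IGF2 and HMGA2 (1.12) were called and the median was 0.02. The next largest rises were NELL1 (from 0.1399 and 0.259 TPM to 72.5 and 90.9 TPM), a secreted protein, SFRP5, and SEZ6L (from 0.208 and 0.296 TPM to 75.03 and 67.9 TPM), a neuronal membrane protein. ITGA8 (5.55), an integrin chain, HOXB3, SPX (5.22), a peptide hormone, COL25A1 (5.16), a membrane collagen, MEIS1, TSHZ1 (4.94), a teashirt zinc finger factor, NOG, NEFM, LUM (4.62), a matrix proteoglycan, and RASGEF1B (4.61) were among those that followed. The named rises thus mixed axial patterning factors with secreted and matrix proteins. Of them NELL1, SFRP5, SEZ6L, ITGA8, HOXB3, COL25A1, TSHZ1, NOG and LUM passed the filter through pNE_H alone, so they had to rise. The largest falls were ZSCAN10 (from 78.96 and 113 TPM to 0.984 and 1.23 TPM), a zinc finger factor of pluripotent cells, ASS1 (from 269 and 252 TPM to 5.99 and 4.22 TPM), the enzyme of argininosuccinate synthesis, and LHX5. TDGF1, RARRES2 (-4.93), POU5F1, TRBC2 (-4.82), CDH1, ZFP42, C13orf42 (-4.43), CYP2S1 (-4.43), SCNN1A (-4.34), an epithelial sodium channel subunit, ACOXL (-4.3), CLDN7 and SOX3 came after. LHX5, TDGF1, RARRES2 and C13orf42 passed the filter through pNE alone, so they had to fall. RARRES2 is a secreted chemoattractant named for its response to retinoids in skin, and it fell from 38.8 and 38.3 TPM to 0.208 and 0.397 TPM.

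With origin, day and density held the same, hindbrain medium differed from forebrain medium in 800 genes (5.43%), 286 higher (1.94%) and 514 lower (3.49%) in pNE_H. Genes present only in pNE_T are left out by the filter, and with the filter over 18 libraries 281 genes were higher and 576 lower. The largest differences upward were MSX1, PENK (0.736 and 0.776 TPM in pNE_T and 20.1 and 19.8 TPM in pNE_H), which encodes enkephalin, TMEM229A (3.42), MAFA (3.36), a bZIP factor, the proteoglycan BGN (3.35), ZDHHC8BP (3.34), SFRP5 and SOX10 (3.27). ZDHHC8BP is a pseudogene, and its level is uncertain for the sequence it shares with its parent gene. Downward they were ACTA1 (342 and 355 TPM in pNE_T and 13.4 and 12.02 TPM in pNE_H), an actin of muscle, the forebrain factor FEZF2 (-3.42), the GDNF receptor GFRA1 (-3.4), SOX21 (-3.4), CALB2 (-3.37), IGFBP3 (-3.24), PROC (-3.24) and ADAMTSL4 (-3.08). Of the genes named as higher in pNE_H, MSX1, PENK, ZDHHC8BP and SFRP5 passed the filter through pNE_H alone, the group where they were high.

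From midbrain medium, hindbrain medium differed in 893 genes (6.06%), 509 higher (3.46%) and 384 lower (2.61%) in pNE_H. The filter leaves out genes present only in pNE_M, and with the filter over 18 libraries 511 genes were higher and 510 lower, so the excess of higher genes was not there. Among those higher by the most were SFRP5, CHGA (3.65 and 3.76 TPM in pNE_M and 294 and 241 TPM in pNE_H), a secretory granule protein, CRABP1 (8.69 and 9.09 TPM and 533 and 559 TPM), SPX (5.55), NELL1 (5.35), SHISA2 (4.46), a WNT and FGF receptor modulator, and F2RL2 (4.42). CHGA and SHISA2 were not called between pNE_H and pNE, with log2 fold changes of -0.12 and -0.43. Lower by the most were SP5 (-9.25), ZIC1 (148 and 123 TPM in pNE_M and 1.08 and 0.6598 TPM in pNE_H), FZD10 (-5.73), CDX2, MUSTN1 (-4.81), NKD1 (-4.56), UGT8 (-4.45) and MSX1. The comparisons with pNE_T and pNE_M share the pNE_H libraries with the main comparison, so their values are given side by side and no overlap is drawn from them.

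The response to hindbrain medium differed between the 2 origins. In cells of anterior origin 3.39% of the tested genes were called higher in aNE_H than in aNE and 7.24% lower. The change from aNE to aNE_H was subtracted from that of pNE to pNE_H in the same fit, and 1270 genes (8.62%) differed, 640 with a higher (4.34%) and 630 with a lower (4.28%) response in posterior cells. Plating density at day 4 differed between origins, so origin and density cannot be told apart here. In aNE_H all 12 anterior HOX genes were listed at 0. The 8 called in pNE_H were also called in this difference, which largely repeats their change in posterior cells (median 4.12 in both). It is therefore no separate support, and 4 of the 9 tested had passed the filter through pNE_H alone. FGF-ERK feedback genes differed the other way: 14 of 16 had a lower response in posterior cells and 1 a higher one. DUSP6 went from 29.3 and 33.6 TPM in aNE to 337 and 352 TPM in aNE_H, against 274 and 238 TPM and 286 and 298 TPM in the posterior groups (log2 fold change -3.22 ± 0.11, adjusted p = 8.79e-10). SPRY4 went from 6.395 and 5.03 TPM to 203 and 188 TPM in the anterior groups and from 77.5 and 85.99 TPM to 65.3 and 61.5 TPM in the posterior ones (log2 fold change -5.24 ± 0.15, adjusted p = 1.90e-10). Both genes were low in aNE and already high in pNE, and rose in the anterior groups.

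GBX2 had the widest difference of the named genes, and went in opposite directions. It was at 1.04 and 1.05 TPM in aNE and 91.9 and 88.02 TPM in aNE_H, against 172 and 216 TPM in pNE and 33.1 and 24.8 TPM in pNE_H (log2 fold change -8.18 ± 0.28, adjusted p = 8.79e-10). OTX2 fell in both origins and remained at 25.2 and 27.7 TPM in aNE_H, against 1.37 and 0.908 TPM in pNE_H. EGR2 was at 0.202 and 0.03197 TPM in aNE_H. PAX3 reached 54.2 and 50.3 TPM in aNE_H and 2.37 and 4.54 TPM in pNE_H, and its responses from day 2 differed by -3.65 ± 0.32. ID1 fell from 131 and 135 TPM to 48.8 and 35.2 TPM in anterior cells where it rose in posterior cells (log2 fold change 5.74 ± 0.25, adjusted p = 7.17e-09). CYP26A1 fell in both, to 2.49 and 2.62 TPM in aNE_H, a lower level than in pNE_H. RARB was at 0.478 and 0.213 TPM in aNE_H against 56.9 and 65.5 TPM in pNE_H. The difference between its responses from day 2, which is not that between these levels, was 2.22 ± 0.22.

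**Figure D5:**
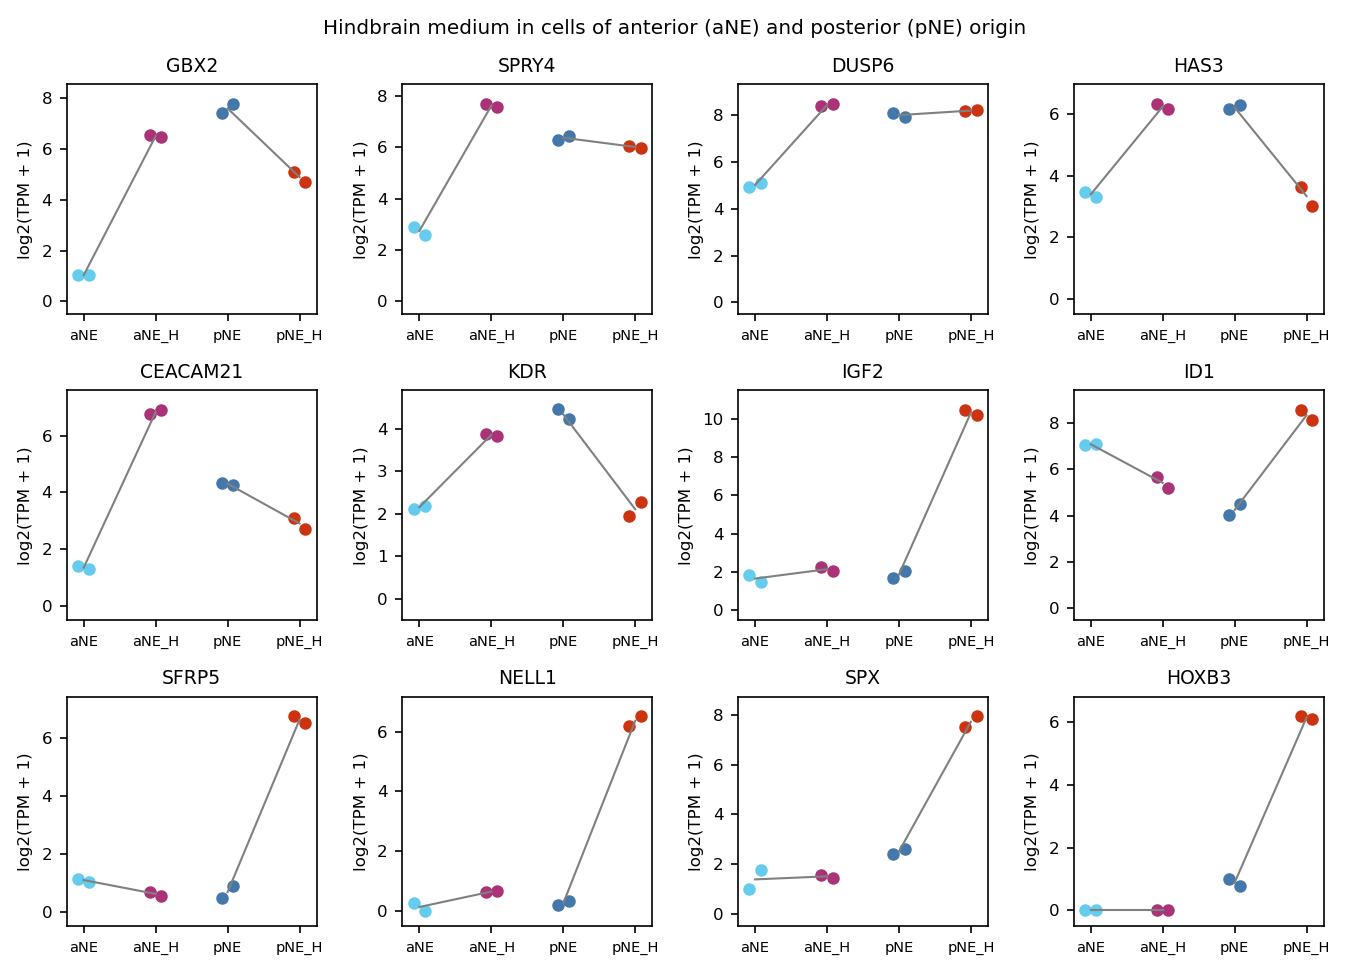
Log2(TPM + 1) of 12 genes in each library of anterior origin at day 2 (aNE) and in hindbrain medium at day 4 (aNE_H), and of posterior origin (pNE, pNE_H); grey lines join the group means and each panel has its own scale. GBX2, HAS3, CEACAM21 and KDR rise in cells of anterior origin and fall in those of posterior origin, SPRY4 and DUSP6 rise in the anterior cells, and IGF2, SFRP5, NELL1, SPX and HOXB3 rise in the posterior cells.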

How the data were processed

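RNA sequencing was made from RNA bound to poly-T beads and primed with random hexamers, per the labels' protocols. The authors deposited TPM values for 37550 rows, of which 7898 carry no gene symbol. The submitters' processing notes name bcl2fastq, FastQC, Trim Galore, kallisto, deepTools and the genome build hg38. Depth and strand setting are not given in the sources used here, so values carry no counting interval.

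Genes reaching 1 TPM in 2 or more of the 4 pNE and pNE_H libraries were tested on log2(TPM + 1) with limma 3.58.1 (limma-trend, R 4.3.3). This scale understates the change of low genes. The fit had 1 mean per group over all 18 libraries (9 groups of 2, 9 residual degrees of freedom), which share 1 estimate of the spread. P-values are two-sided and Benjamini-Hochberg adjusted over the 14730 tested genes. They measure the spread between 2 libraries per group. Genes are named if they are on 1 of 29 lists, among the 15 largest rises or falls of pNE_H against pNE, or among the 8 largest in each direction of the other comparisons. The largest were taken among called genes with a symbol, groups that do not overlap and a mean of at least 10 TPM in the higher group. For the origin difference these groups were pNE and pNE_H. A few genes that meet this rule are not reported here. The members and lists were chosen with earlier results of these data known. The lists are described by counts and medians, with no test. Promoters come from RefSeq (GRCh38.p14). Alternatives were other pseudocounts, filters, scalings, call rules, a replicate block and leaving out each library. Python 3.11.15, pandas 2.3.3 and matplotlib 3.10.9 were used for lists and plots. Deviations of same-numbered pNE and pNE_H libraries from their group means correlated across genes at r = -0.12, so the replicate numbers were not taken to pair libraries.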

Additional observations from a re-analysis of the deposited data

Results flagged for a closer look

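The results given here are those in which the response to hindbrain medium differed between cells of posterior and of anterior origin by a test of the difference itself in the limma fit. In total 1270 genes differed, and 14 of 16 FGF-ERK feedback genes had a lower response in posterior cells and 1 a higher one. Differences are the log2 change of posterior cells minus that of anterior cells. IGF2 had the largest higher response (7.96), staying at 3.805 and 3.12 TPM in aNE_H, and SFRP5 differed by 6.44 with 0.6103 and 0.451 TPM in aNE_H. NELL1 differed by 5.59, COL25A1 by 5.34, SPX by 5.1 and RASGEF1B by 4.96. HOXB3, which was listed at 0 in aNE and aNE_H, differed by 5.26, which repeats its change in posterior cells. SFRP5, NELL1, COL25A1 and HOXB3 passed the filter through pNE_H alone, so the direction of their posterior change was fixed. ID1 differed by 5.74 and changed in opposite directions.

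Lower responses in posterior cells were led by GBX2 (-8.18) and CEACAM21 (-6.88), a cell-surface protein that went from 1.62 and 1.47 TPM in aNE to 107 and 118 TPM in aNE_H and from 19.2 and 18.3 TPM in pNE to 7.51 and 5.57 TPM in pNE_H. F13A1, a subunit of a clotting factor, differed by -6.44, HAS3, a hyaluronan synthase, by -5.74, and SPRY4 by -5.24. The ranking required 10 TPM in pNE or pNE_H, which leaves out genes high only in anterior cells. SP5, left out by this limit, differed by -6.52, with 68.6 and 33.3 TPM in aNE_H. SCUBE1 differed by -4.43, LRAT, which esterifies retinol, by -4.37, and the VEGF receptor gene KDR by -3.93. Plating density differed between the origins at day 4, so origin and density cannot be told apart in any of these.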

How the results depend on the processing

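The 2081 calls between pNE and pNE_H numbered 1963 to 2209 when any 1 library was left out, with the lone library of a group assumed to vary like the others. The origin difference had 1169 to 1266, the forebrain comparison 821 to 836 and the midbrain comparison 864 to 947. By adjusted p alone the counts were 6310, 2755, 3114 and 3230, and by the limma treat test against a log2 fold change of 1 they were 841, 341, 202 and 285. Quantile normalization raised the share of higher calls between pNE and pNE_H from 36.6% to 47.4%. With the replicate number as a block the counts were 2080, 1261, 800 and 897. A block over the 4 libraries alone gave 2161 and a block with crossed numbers 2186, and both were chosen after seeing the data.

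Of 195 called genes named in the text, none reversed and 159 kept the call under every alternative. All 36 others lost it under the treat test. Without pNE replicate 1 the call ended for ALDH1A2 (1.01, adjusted p = 0.0864 in limma), DUSP4 (0.96), HHIP (0.90), LMX1B (0.85), PAX6 (0.85), RARA (0.81), TFAP2A (1.02) and ZNF703 (0.84). Without pNE replicate 2 it ended for MCM5 (-0.95), NGFR (-0.98), NTN1 (-0.95), SOX2 (-0.94) and TFAP2A (1.1). Without pNE_H replicate 1 it ended for ALDH1A2 (1.01), HHIP (0.98), LMX1B (0.72), RARA (0.97), TFAP2A (0.92) and ZNF703 (0.94). Without pNE_H replicate 2 it ended for LFNG (-1.0), SOX2 (-0.95) and TFAP2A (1.2). Besides SOX2, scaling ended it for MCM5 (-0.96 by median ratio, -0.98 by quantiles) and NTN1 (-0.98 by quantiles), and no filter for TFAP2A (1.06). The causes were not tested.

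Signs changed for 6 genes that were not called: GAPDH (0.027 by median-ratio scaling), and, leaving out 1 library each, ADAMTSL4 (-0.43 to 0.084), CHGA (-0.28 to 0.046), MUSTN1 (-0.49 to 1.04), NES (-0.28 to 0.059) and SOX11 (-0.16 to 0.26). At 5 TPM the medians of tested WNT targets (2.68), neuronal genes (-1.53) and mesendoderm (1.1) were farther from 0. Medians near 0 changed sign for mesendoderm (-0.022 without a filter, -0.043 with the filter over 18 libraries, -0.15 to 0.27 leaving out 1 library), for endothelium and blood (1.01 at 5 TPM, where fewer genes were tested, 0.0061 by median-ratio scaling, 0.013 by quantiles, -0.21 to 0.066 leaving out 1 library) and for the IGF2 list (-0.088 to 0.13 leaving out 1 library).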
